A study of Caenorhabditis elegans with 2 samples.

Results

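Histone H3 lysine 4 (H3K4) methyltransferase complex genes encode the enzymes that add methyl groups to H3K4 and the subunits that work with them. The 10 genes described here were set-2, set-16, set-17, set-30, ash-2, dpy-30, rbbp-5, wdr-5.1, cfp-1 and hcf-1, out of 19973 protein-coding genes on the nuclear chromosomes. They were listed by name and not by a measured value, although earlier results of these data were known when the list was chosen. A region was counted at a gene when its summit, the base of highest enrichment, lay inside the gene or within 2 kb upstream of the 5′ end of any of its transcripts. The regions came from ChIP-seq of RBR-2 in whole hermaphrodite Caenorhabditis elegans of strain OP195, a stable transgenic line in which RBR-2 carries a C-terminal GFP-FLAG tag. The animals were L4 larvae, grown for 56 hours from a starved, synchronised L1 population, in 1 group with 2 biological replicates. No other genotype, stage or treatment was given, so no conditions were compared. The antibody is named as anti-GFP in the sample description and as rbr-2 in the antibody field, and whether untagged RBR-2 added to the signal was not tested. All tissues of the animal were pooled, so a weak signal in all cells and a strong signal in a few cells cannot be told apart.

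Methylation of H3K4 marks the promoters of active genes and is laid down by SET-domain enzymes. The SET1/MLL-type enzymes act inside multi-subunit complexes (COMPASS), in which ASH-2, DPY-30, RBBP-5 and WDR-5.1 form a core that the catalytic subunits share. RBR-2 belongs to the KDM5 family of demethylases, which remove the same mark, so the regions below place a tagged eraser of H3K4 methylation relative to the genes for its writers.

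Each of the 4 lists of regions gives every region a signal, the strength assigned by the authors' peak caller. The pooled list, made from both replicates together, held 30000 regions with a median signal of 24.2. The optimal list, which passed the authors' reproducibility procedure, held 3442 regions with signals of 65.2 or more and a median of 114, and was the same as the 3442 strongest pooled regions. The replicate lists held 26742 regions in replicate 1 and 28724 in replicate 2, and the 3442 strongest of each began at a signal of 32.3 in replicate 1 and 36.7 in replicate 2. Signals from different lists are on different scales, so they are given side by side and compared by rank, where rank 1 is the strongest. A ratio between replicates is given with its spread over the list. The lists carry no read counts, so the depth is unknown and no single signal has an error of its own.

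RBR-2 regions of the optimal list were found at 4 of the 10 genes: set-2, set-16, ash-2 and dpy-30. Over all protein-coding genes the share was 17.4%, and the exact Clopper-Pearson 95% interval of 4 in 10 runs from 12.2 to 73.8%, for counting error only. The interval includes the value over all genes, so with 10 genes and this window the higher share is not distinguishable from it. The searched stretch was also longer, with a median of 5876 bp at the 10 genes and 4027 bp at all genes, and the part of gene length in the share was not tested. An optimal summit within 500 bp of a transcript 5′ end was found at the same 4 of the 10 genes, against 10.3% of all genes. That value lies just below the same interval, so the reading depends on the distance used, which was chosen with earlier results known. Over all genes, 2052 had such a summit, while 3473 had an optimal region anywhere in the window. A position near a 5′ end was thus common among genes with an optimal region. A region in the strongest of both replicates was found at set-16, ash-2 and dpy-30, 3 of the 10 genes, against 14.7% of all genes. These 4 genes include those for the catalytic subunits of both types of SET1/MLL complex, although the set-16 site is nearer to a neighbouring gene, drr-2. They also include the shared core subunit genes ash-2 and dpy-30, but not rbbp-5 or wdr-5.1.

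The weaker regions of the pooled and replicate lists were common throughout the genome and were found at nearly all of the 10 genes. The pooled list had a region at 9 of the 10 genes, all except rbbp-5, against 56.3% of all genes. Replicate 1 had a region at the same 9 genes, against 58.2% of all genes, and replicate 2 at all 10, against 58.6%. The exact 95% interval was 55.5 to 99.7% for 9 of 10, which includes the values over all genes, and 69.2 to 100% for 10 of 10, which does not include 58.6%. The longer stretch searched at the 10 genes applies to these counts too. At 5 of the 10 genes, set-17, set-30, cfp-1, wdr-5.1 and hcf-1, the pooled list had a region and the optimal list none, against 38.9% of all genes. The authors describe these lists as holding peaks together with background, so a region that is only in them is not a call of binding.

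**Figure D1:**
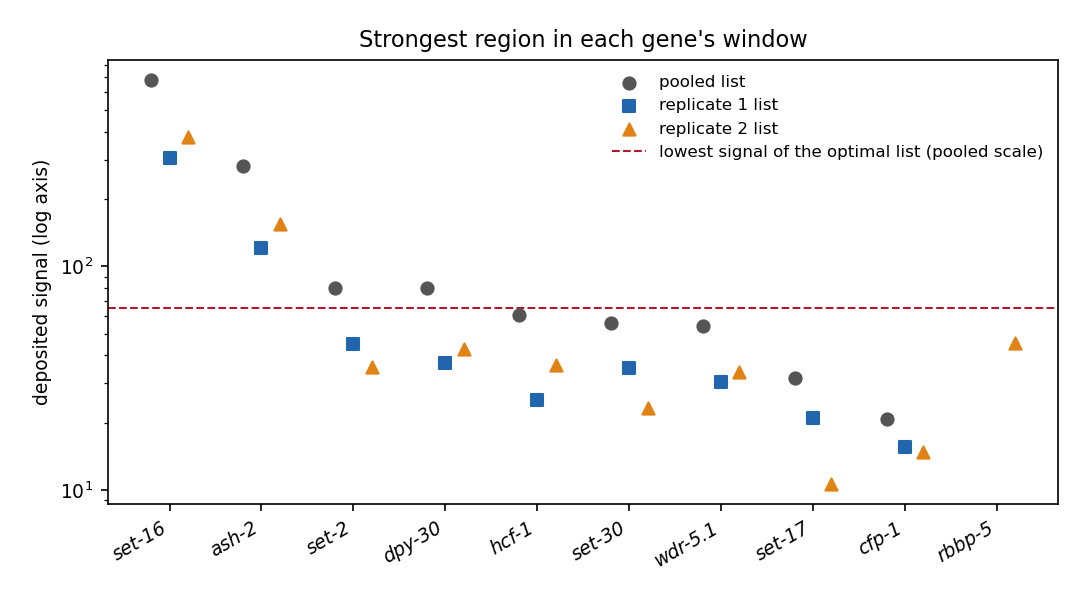
Strongest deposited signal in each gene's window (vertical log axis) for the 10 genes, in the pooled list (circles), replicate 1 (squares) and replicate 2 (triangles). The dashed line is the lowest optimal signal, 65.2, and applies to the circles alone. The strongest region can be a different site in each list, as at wdr-5.1. Circles of 4 genes lie above the line, and rbbp-5 has a triangle alone.

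The strongest region lay at set-16 (WBGene00011729), which encodes the MLL-type H3K4 methyltransferase of the worm. The gene lies at chrIII:13643916-13656637 on the plus strand, in the ce11 build used throughout. Its optimal region, chrIII:13643553-13643927, had a signal of 681 in the pooled list. The same site had 304 in replicate 1 and 378 in replicate 2, and it ranked 54 in all 3 lists. Among the 3473 genes with an optimal region, 40 had a stronger one. The replicates thus placed the site equally high, with summits at most 3 bp from the pooled summit.

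The set-16 summit, at position 13643731, was intergenic. It lay 185 bp upstream of the set-16 5′ end and 250 bp upstream of its first codon. The divergent gene drr-2, which encodes a translation initiation factor related to eIF4H, began 346 bp away from set-16, and its 5′ end was 161 bp from the summit. The site lies in a shared upstream stretch and is nearer to drr-2 than to set-16, so the lists do not say to which of the genes it belongs.

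The sequences around the summits at set-16 and dpy-30 are shown because they hold matches to some of the 7 short motifs searched on both strands. Over all 3423 nuclear optimal regions, GAGAGA was found in 44.6%, CTGCGTC in 18.3%, GGGCGG in 11.7%, TATAAA in 11.2%, TGATAA in 7.95%, CACGTG in 5.2% and TTCCCGC in 4.03%. Each stretch is read 5′ to 3′ in the direction of the gene, from 100 bases before the summit to 100 after it, in the RefSeq genome of the same assembly, with motif matches in capitals.
set-16 (chrIII:13643631-13643831, plus strand): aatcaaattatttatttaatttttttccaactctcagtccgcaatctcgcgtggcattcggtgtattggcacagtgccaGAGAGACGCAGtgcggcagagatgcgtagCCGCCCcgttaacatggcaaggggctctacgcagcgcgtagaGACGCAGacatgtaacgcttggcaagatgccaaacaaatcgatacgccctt
dpy-30 (chrV:12191033-12191233, plus strand): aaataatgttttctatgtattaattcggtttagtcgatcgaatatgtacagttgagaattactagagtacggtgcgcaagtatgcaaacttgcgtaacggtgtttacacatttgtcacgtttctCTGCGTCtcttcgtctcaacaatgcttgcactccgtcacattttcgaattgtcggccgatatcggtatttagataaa
The set-16 stretch held 1 match to GAGAGA, 2 to CTGCGTC on the opposite strand and 1 to GGGCGG on the opposite strand. The GAGAGA match overlapped the first CTGCGTC match, so those letters are counted for both. The dpy-30 stretch held 1 match to CTGCGTC. A match is a description of the letters and not a binding site.

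Inside set-16 the pooled list held a long row of weaker regions. The gene's window had 13 pooled regions, with 12 in replicate 1 and 11 in replicate 2. In all, 166 protein-coding genes (0.831%) had as many pooled regions or more, in windows of any length, and the set-16 window of 14722 bp is long. Of the 13, 10 lay inside the gene, from 590 to 12167 bp downstream of its 5′ end, and all 10 summits were in coding exons, which make up 58.4% of the gene. Some of the 10 regions overlap each other. The replicate 1 counterpart of the region at 11493 bp had its summit in an intron, and the other replicate summits inside the gene were in coding exons. The share in coding exons over all pooled regions was not computed, so a preference for exons was not tested.

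The strongest of these internal regions had pooled signals of 53.9 at 7839 bp, 52.6 at 2112 bp and 40.3 at 11283 bp, below the lowest optimal signal of 65.2. The region at 7839 bp had 20.2 in replicate 1 and 30.7 in replicate 2. The region at 2112 bp had 14.9 in replicate 1 and 40.4 in replicate 2, where it was among the strongest 3442. Of the set-16 regions matched in both replicates, the replicates differed most at this site: the ratio of replicate 1 to replicate 2 was -1.44 on the log2 scale, whereas at the upstream summit it was -0.31. Over the 10228 nuclear pooled regions outside the optimal list that had a counterpart in both replicates, the median was -0.18, with quartiles of -0.60 and 0.26, and 2.71% had a ratio as low as -1.44.

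**Figure D2:**
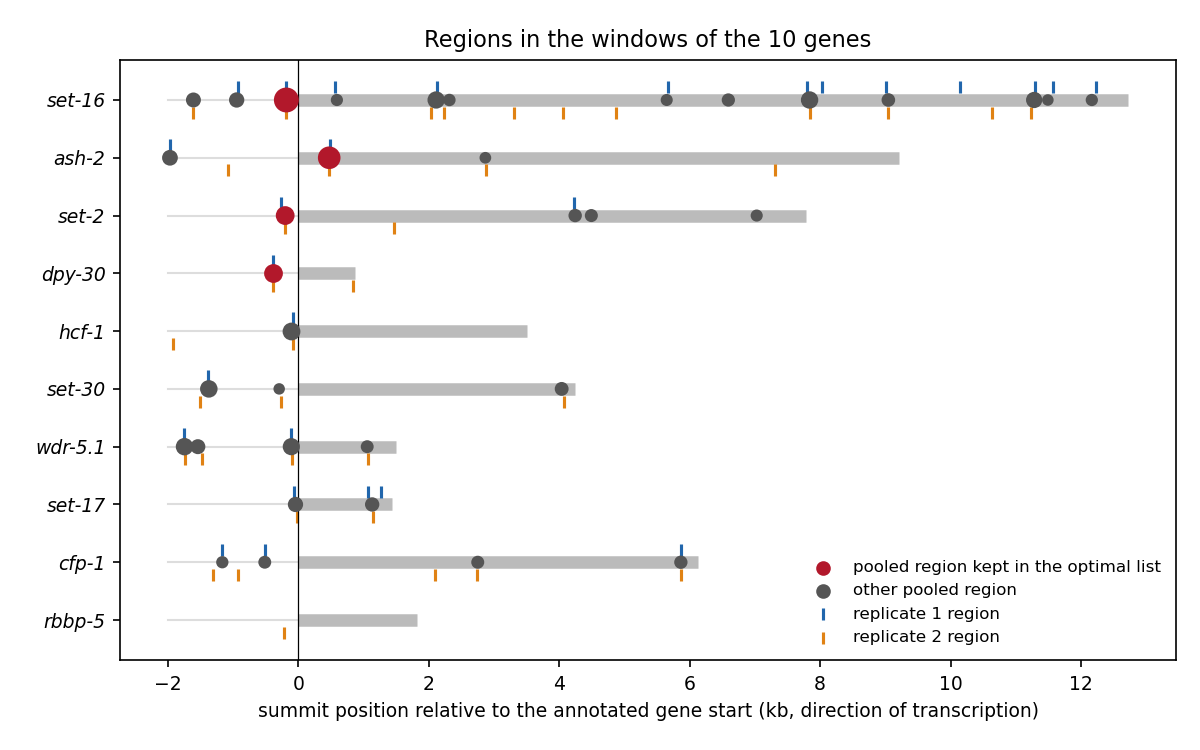
Summit positions in the window of each gene, in kb from the annotated gene start along the direction of transcription, with the gene as a grey bar. Circles are pooled regions, larger where the signal is higher and red where the region is in the optimal list. Ticks above and below mark replicate 1 and replicate 2. The 4 red circles lie at set-16, ash-2, set-2 and dpy-30, and set-16 has 13 circles.

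The gene set-2 (WBGene00004782) encodes the SET1-type enzyme, the main enzyme for H3K4 trimethylation in the worm. It lies at chrIII:4922427-4930204 on the minus strand. Its optimal region, chrIII:4930187-4930626, had a pooled signal of 80.2 and rank 2646. The site had 44.8 and rank 2258 in replicate 1, and 35.4 and rank 3602 in replicate 2. It was thus among the strongest 3442 of replicate 1 and just outside those of replicate 2. The summit, at 4930407, was intergenic and lay 203 bp upstream of the 5′ end. The summit of replicate 1 was 66 bp from it and that of replicate 2 was 2 bp from it.

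Of the genes with an optimal region, 82.9% had a stronger one than set-2, compared with 1.15% for set-16. By the window rule, the 2 genes for SET1/MLL-type enzymes thus stood far apart in the list, though the set-16 site is shared with drr-2. The other pooled regions of set-2 had signals of 21.1, 19.7 and 16.6. The summits with 21.1 and 19.7 were in coding exons, 140 and 388 bp downstream of the internal 5′ end of a short isoform. Only the region with 21.1 had a counterpart within 200 bp in a replicate, with 19.7 in replicate 1.

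The genes set-17 (WBGene00011887) and set-30 (WBGene00022499) encode other SET-domain proteins that have been linked to H3K4 methylation in worms. Neither had an optimal region. At set-17, chrII:8939054-8940488 on the minus strand, the strongest pooled region had a signal of 31.6 and rank 9675, with its summit 45 bp upstream of a 5′ end. It had 21.0 in replicate 1 and 10.6 in replicate 2, a log2 ratio of 0.98, which 4.98% of pooled regions outside the optimal list matched or exceeded among those found in both replicates. A second pooled region, in an intron, had 25.7. The site by the 5′ end ranked 6537 in replicate 1 and 25583 in replicate 2. By the nearest summit, the intronic site ranked 17247 in replicate 1 and 28707 in replicate 2, so both stood higher in replicate 1. Replicate 1 also had a coding-exon summit within 200 bp of the intronic site, with 21.0 and rank 6520, its strongest in the window.

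At set-30, chrX:4999270-5003516 on the plus strand, the strongest pooled region had 55.7 and rank 4160. It had 35.1 in replicate 1, rank 3078 and among the strongest, and 23.2 in replicate 2, rank 6988. Its summit was 1374 bp upstream of set-30 and 298 bp upstream of the divergent gene ZC8.6. The summits nearer to set-30 were weaker: 14.9 at 295 bp upstream, and 23.2 at 4037 bp downstream, near the 3′ end.

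Among the genes for shared core subunits, ash-2 (WBGene00012458) had the strongest region. Its mammalian relative helps to stimulate methylation by the SET1/MLL enzymes. The gene lies at chrII:11979838-11989050 on the plus strand, and its optimal region, chrII:11980195-11980464, had a pooled signal of 282 and rank 340. The site had 121 and rank 427 in replicate 1, and 155 and rank 331 in replicate 2. Only 11.6% of genes with an optimal region had a stronger one. The site was among the strongest in both replicates, with summits at most 13 bp from the pooled summit.

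The ash-2 summit, at 11980310, differed in position from those at set-2, set-16 and dpy-30. It lay inside the annotated gene, 472 bp downstream of its most upstream start and 116 bp upstream of the nearest transcript 5′ end. The summit fell in an exon of a noncoding transcript, Y17G7B.2c. The divergent gene Y17G7B.20 began 466 bp away. The other pooled regions at ash-2 were weaker, with 35.5 at 1970 bp upstream and 15.4 at 2240 bp downstream of a 5′ end, and each had a counterpart in a single replicate.

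The gene dpy-30 (WBGene00001088) encodes a small core subunit that in worms is also needed for dosage compensation of the X chromosome. It lies at chrV:12191519-12192385 on the plus strand. Its optimal region, chrV:12190913-12191352, had a pooled signal of 80.0 and rank 2657. The site had 36.8 and rank 2892 in replicate 1, and 42.9 and rank 2790 in replicate 2. It was in the lower part of the optimal list, yet stayed among the strongest 3442 of each replicate. The summit was intergenic, 386 bp upstream of the 5′ end, and was the only pooled summit in the window.

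The stretches around the set-2 and ash-2 summits are shown for contrast with those at set-16 and dpy-30, since they held no match to any of the 7 motifs and have no capitals. No match says only that those letters are absent from the window.
set-2 (chrIII:4930307-4930507, minus strand): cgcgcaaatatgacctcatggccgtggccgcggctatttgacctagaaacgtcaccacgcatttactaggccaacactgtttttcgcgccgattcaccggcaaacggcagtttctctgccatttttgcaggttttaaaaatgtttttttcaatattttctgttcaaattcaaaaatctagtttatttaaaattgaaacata
ash-2 (chrII:11980210-11980410, plus strand): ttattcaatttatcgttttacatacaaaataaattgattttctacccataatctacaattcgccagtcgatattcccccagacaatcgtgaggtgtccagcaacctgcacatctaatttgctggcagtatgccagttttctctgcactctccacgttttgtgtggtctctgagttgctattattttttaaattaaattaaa
They also differed in CG dinucleotides, which the CXXC finger of CFP-1-type subunits is known to bind when unmethylated in mammals.

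The number of CG dinucleotides within 100 bases on either side of the summit was 16 at set-16, 15 at dpy-30, 12 at set-2 and 5 at ash-2. The median over all nuclear optimal regions was 11, with quartiles of 8 and 14, and the genome average is 6.28 for a window of that size. More CG dinucleotides were found in 11.0% of optimal regions for set-16, 15.9% for dpy-30, 35.9% for set-2 and 91.9% for ash-2. GC content was 50.2% at set-16, 39.8% at set-2, 38.8% at dpy-30 and 35.8% at ash-2. Over the optimal regions the median was 45.3% and the lower quartile 40.3%, so set-2, dpy-30 and ash-2 lay below that quartile. In a window of double that size 27.9% of optimal regions had more CG dinucleotides than dpy-30, whose 21 was then below the upper quartile of 22, and 60.7% had more than set-2. The 4 sites share no common composition. At dpy-30 a CG count above the upper quartile went with a GC content below the lower quartile. The ash-2 site was low in both although its signal was the second highest of the 4.

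**Figure D3:**
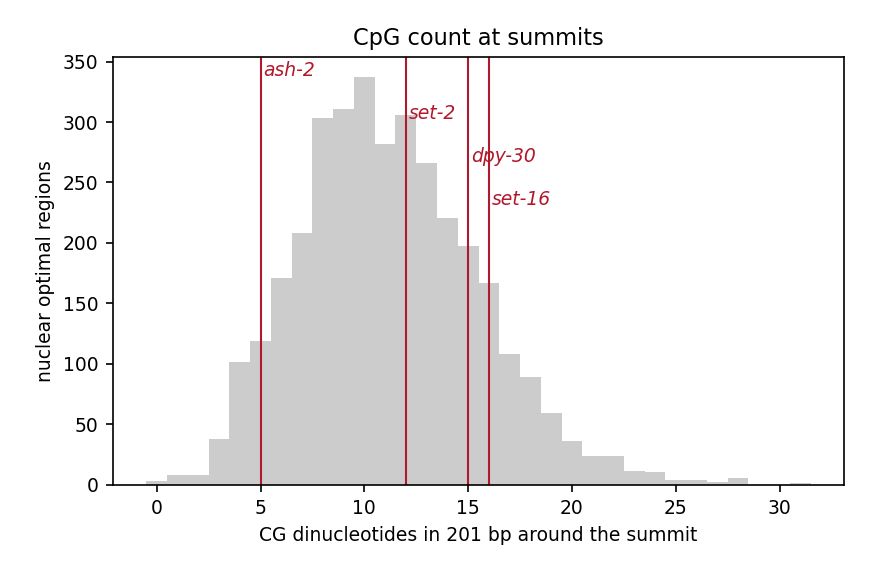
Number of CG dinucleotides within 100 bases on either side of the summit (horizontal axis) against the number of nuclear optimal regions (vertical axis, 3423 in all). Vertical lines mark ash-2 at 5, set-2 at 12, dpy-30 at 15 and set-16 at 16, against a median of 11.

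The WD-repeat subunit gene wdr-5.1 (WBGene00006474), at chrIII:3705285-3706784 on the plus strand, had 4 pooled regions but none in the optimal list. The summit nearest to its 5′ end, 109 bp upstream, had a pooled signal of 50.7 and rank 4694. It had 30.5 and rank 3704 in replicate 1, and 18.2 and rank 10831 in replicate 2. A stronger pooled region, with 54.3 and rank 4298, lay 1747 bp upstream, which is 26 bp upstream of the neighbouring gene C14B1.3. That region had 17.6 and rank 8813 in replicate 1, and 33.6 and rank 3859 in replicate 2. The order of the sites therefore turned round between replicates, with the site by the wdr-5.1 5′ end higher in replicate 1 and the C14B1.3 site higher in replicate 2.

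The gene rbbp-5 (WBGene00017683), at chrII:6097830-6099645 on the plus strand, encodes a core subunit whose mammalian relative contacts the catalytic SET domain. It had no region in the optimal list, the pooled list or replicate 1. Replicate 2 had a single region at chrII:6097389-6097824, with a signal of 45.2 and rank 2572, among the strongest of that replicate. Its summit was 223 bp upstream of rbbp-5 and 10 bp upstream of tpp-2, the divergent gene for tripeptidyl peptidase II, 233 bp away. Around rbbp-5 no pooled summit was listed over 15172 bp, a gap that 1251 of 29974 gaps between neighbouring pooled summits matched or exceeded.

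A strong replicate region with no pooled counterpart was uncommon in the data. Of the strongest nuclear regions, 34 of 3421 (0.994%) in replicate 2 and 51 of 3424 (1.49%) in replicate 1 had no pooled summit within 200 bp. For 14 of those in replicate 2 and 31 of those in replicate 1, the other replicate also had none. The rbbp-5 region is among the 14, so nothing can be said of binding at this gene beyond replicate 2.

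The CXXC-finger gene cfp-1 (WBGene00009924), at chrIV:14077435-14083568 on the plus strand, encodes the subunit that recruits the SET1-type complex to promoters. It had 4 pooled regions, all weak, with signals of 17.1, 19.2, 19.5 and 20.8. The highest, rank 18964, lay near the 3′ end of the gene, 461 bp downstream of an internal 5′ end. All 4 lie below the pooled median of 24.2, and 82.7% of genes with a pooled region had a stronger one than cfp-1. In the replicates the strongest region of the window had 15.5 in replicate 1, whose list has a median of 13.9, and 14.8 in replicate 2, whose list has a median of 15.5.

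The host cell factor gene hcf-1 (WBGene00001827), at chrIV:7770770-7774275 on the minus strand, encodes a chromatin cofactor whose mammalian relative joins SET1/MLL complexes. Its pooled region came closest to the optimal list without entering it, with a signal of 60.3 and rank 3738. The site had 25.3 and rank 4884 in replicate 1, and 36.2 and rank 3490 in replicate 2, just outside the strongest 3442 of replicate 2. The summit lay 111 bp upstream of hcf-1 and 25 bp upstream of the divergent gene swd-2.2, which encodes a WD-repeat subunit of the SET1-type complex. With 136 bp between both genes, the single region counts for both. The threshold thus falls between dpy-30, inside with 80.0, and hcf-1, outside with 60.3.

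The 35 pooled regions at the 10 genes included 15 with a summit upstream of the counted gene and 20 with a summit inside it. Some of the upstream summits lay inside a neighbouring gene, and 10 of the 35 summits were intergenic. At 6 of the 9 genes with a pooled region, the strongest summit lay within 500 bp upstream of a transcript 5′ end. The exceptions were set-30 and wdr-5.1, where it was over 1 kb upstream, and cfp-1. These positions were not counted over all genes. The 31 pooled regions that the optimal list left out had a median signal of 21.1 and a highest of 60.3. Of these 31, 13 had a summit within 200 bp in both replicates, as did 10228 of the 26557 nuclear pooled regions outside the optimal list. A further 8 had one in replicate 1 alone, 7 in replicate 2 alone and 3 in neither. A single replicate region could match more than 1 pooled region. All 4 optimal regions were found in both replicates, as were 3397 of all 3423 nuclear optimal regions. The optimal list had passed the authors' reproducibility procedure, so this sets the 4 sites apart from no others.

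The 4 optimal sites did not all lean to the same replicate. The log2 ratio of replicate 1 to replicate 2 was -0.36 at ash-2, -0.31 at set-16, -0.22 at dpy-30 and 0.34 at set-2. Over all optimal regions the median was -0.18, with quartiles of -0.45 and 0.09. The values at ash-2, set-16 and dpy-30 lay between those quartiles, and set-2 lay above the upper one. In all, 76.6% of nuclear optimal regions were among the strongest of both replicates, as were the sites at set-16, ash-2 and dpy-30.

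**Figure D4:**
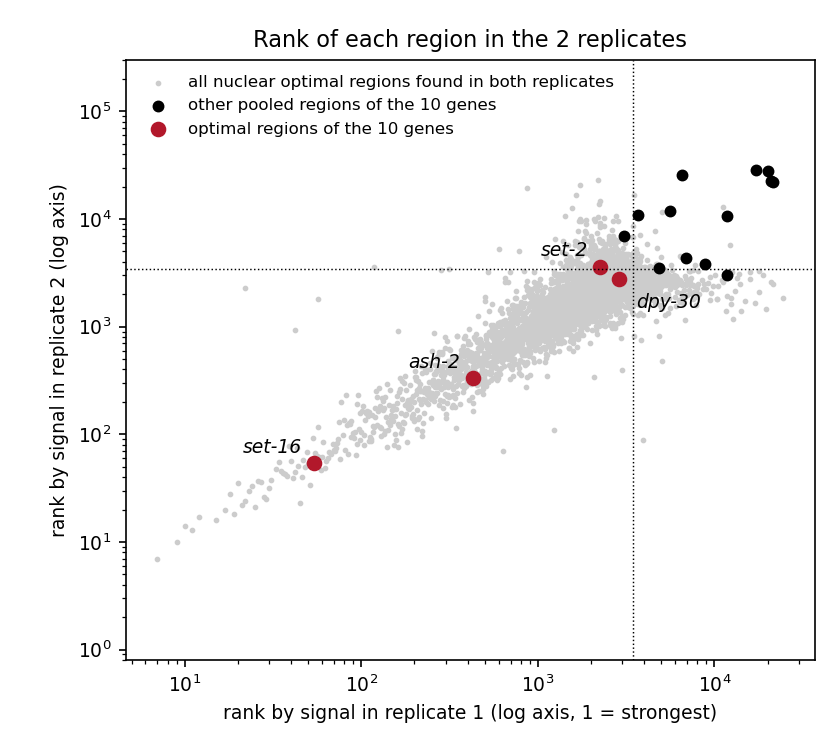
Rank by signal in replicate 1 (horizontal log axis) and replicate 2 (vertical log axis), where rank 1 is the strongest. Grey points are nuclear optimal regions, red points those at the 10 genes, and black points their other pooled regions with a summit in both replicates. Dotted lines mark rank 3442. The set-16 point is at rank 54 on both axes, and set-2 lies just above the line of replicate 2.

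The median of the strongest signal per gene was 181 over the 4 genes with an optimal region and 127 over all 3473 such genes. In the pooled list it was 60.3 over 9 genes and 37.5 over 11241. With set-16 and ash-2 high and set-2 and dpy-30 low, the median of the 4 describes none of them, and the 2 lower genes stood below most genes in the list: 82.9% of genes exceeded set-2 and 83.0% exceeded dpy-30.

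A list of 13 further genes of H3K4 methylation, chosen with earlier results of these data known, was counted by the same rule. Every gene in it except swd-2.2, with 3628 bp, had a searched stretch longer than the all-gene median of 4027 bp. The part of this length in the counts below was not tested. Of the 13, 6 (46.2%, 95% interval 19.2 to 74.9% for counting error only) had an optimal region, against 17.4% of all genes. They were lin-59, an ASH1-type trithorax gene, with 415, set-26, a SET-domain gene with a PHD finger that reads the mark, with 245, utx-1, an H3K27 demethylase of the MLL-type complex, with 123, spr-1, a CoREST-type corepressor, with 123, lsd-1, an amine-oxidase demethylase, with 107, and wdr-5.3, a paralog of wdr-5.1, with 69.3. Within 500 bp of a 5′ end the count was 2, utx-1 at 260 bp and wdr-5.3 at 166 bp, against 10.3% of all genes. The summits at lin-59, 557 bp upstream, and set-26, 572 bp upstream, lay just past that distance, as did a second lsd-1 site with 85.3 at 545 bp. The spr-1 site lay 1024 bp upstream and the lsd-1 site with 107 lay 1564 bp upstream. The named sites at set-26, spr-1 and wdr-5.3, and the lsd-1 site with 107, were each nearer to the 5′ end of another protein-coding gene, so the lists do not say to which gene each belongs. In the pooled list 11 of the 13 had a region, against 56.3% of all genes, and rbr-2 and spr-5 had none.

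The members of the MLL-type complex that these lists cover differed widely. The catalytic gene set-16 had 681, at the site that is nearer to the 5′ end of drr-2, and utx-1 had 123. Another subunit gene, pis-1, reached 19.3 in the pooled list and had no optimal region. The paralogs of the WD-repeat subunit also differed, with 50.7 at the site by the wdr-5.1 5′ end and 22.1 as the strongest at wdr-5.2, both outside the optimal list, and 69.3 at wdr-5.3 inside it, where the summit was 166 bp from wdr-5.3 and 82 bp from its neighbour mre-11.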

How the data were processed

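ChIP-seq of tagged RBR-2 covered 1 group with 2 biological replicates. Per the labels, chromatin was sonicated. Per the text deposited with the files, replicate and pooled lists were called against a control and the optimal list was made from these. Not given in the sources used here are aligner, caller, versions and threshold. As to values, the deposited signal (column 7) is the authors' peak strength. The authors' summit offset gave summits, other columns and the ce10 lists were not used, and the control was not analysed here.

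Regions were ranked within each ce11 list. Genes came from Ensembl release 115 (WBcel235). Ranks, list sizes, list medians and cutoffs were taken over whole lists, with mitochondrial regions included. Those regions were left out of gene assignment, gaps, sequence counts and replicate ratios. Nearest summits within 200 bp were taken as the same site. With 1 group and 2 replicates no test was made. Work used Python 3.11.15, pandas 2.3.3, NumPy 2.4.6 and SciPy 1.17.1. Assignment was tested on simulated data and was right for 200 of 200 summits.

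Members, lists, motifs and rules were chosen with earlier results of these data known. Named genes were the 10 members, the 13 further genes and genes starting within 500 bp of an optimal summit at a member. C14B1.3, ZC8.6, tpp-2 and mre-11 were named after their values were seen. Alternatives changed the upstream reach, the windows, assignment, list strength, replicate, site distance and sequence window.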

Additional observations from a re-analysis of the deposited data

How the results depend on the processing

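The count of 4 genes with an optimal region, and their names, held with an upstream reach of 500 bp, 1 kb or 3 kb, with upstream windows alone, with annotated gene starts alone and with any overlap. Assigning each region to the nearest gene alone left 3, since the set-16 site went to drr-2. In the stronger 50% of the optimal list 2 remained, set-16 and ash-2. The strongest regions of replicate 2 alone gave 4 (set-16, ash-2, dpy-30 and rbbp-5) and those of replicate 1 alone gave 5 (set-2, set-16, set-30, ash-2 and dpy-30), so set-2, set-30 and rbbp-5 each rest on a single replicate there.

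The share of all protein-coding genes, 17.4%, was 12.1% with 500 bp, 14.2% with 1 kb, 20.0% with 3 kb, 15.6% with upstream windows alone, 18.6% with any overlap, 11.8% with the nearest gene alone and 9.98% with the stronger 50%. The pooled list kept 9 genes in every alternative except the nearest gene alone, which gave 8 by losing hcf-1. All 4 optimal sites were found in both replicates with summits within 100 bp, within 500 bp or with any overlap. The optimal list had already passed the authors' reproducibility procedure. With a doubled sequence window, 60.7% of optimal regions had more CG dinucleotides than set-2, 27.9% more than dpy-30, 13.5% more than set-16 and 85.7% more than ash-2. With any overlap, set-2 took in another region of signal 114. Shares with replicate 2 or replicate 1 alone were 17.1% and 17.3%. No paired analysis was possible because there is 1 group and no test. Unknown depth limits every weak region: whether a site missing from a list was unbound or too shallow to call was not tested.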

Other observations

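The gene rbr-2 itself, which encodes the protein that was precipitated, had no region in any of the 4 lists. No pooled summit was listed over 83368 bp around it, from 30268 bp upstream to 46353 bp downstream of the gene, and 32 of 29974 pooled gaps were as long or longer. The gap was 67930 bp in replicate 1 and 82597 bp in replicate 2, and the median pooled gap was 1391 bp. The line is transgenic for tagged RBR-2, and the lists were called against a control that was not analysed here. Whether the transgene or the control had a part in the gap was not tested. An absent region therefore does not say that the gene was unbound.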
